A study of Nematostella vectensis with 16 samples.

Results

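Mercury (Hg) and cadmium (Cd) were compared directly by RNA sequencing of whole Nematostella vectensis, the starlet sea anemone, a cnidarian of brackish estuaries that is bred in laboratories. The comparison was built from 6 of the 16 libraries of the series, 3 from anemones in mercury chloride and 3 from anemones in cadmium chloride. Both metals were given at 100 µg/L for 24 h to pools of 5 anemones aged 2 to 4 months, kept in the dark at 18 °C in artificial seawater of 12.5 ppt. The other libraries came from 3 pools in copper chloride (Cu), 3 pools in zinc chloride (Zn), each at the same dose and time, and 4 untreated control pools. Each library holds RNA of whole animals, so that fewer cells of a type and less RNA per cell cannot be told apart. The dose is a mass concentration, and the labels do not say whether it refers to the metal or to its chloride salt, so molar doses are not compared here.

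Neither mercury nor cadmium has a known nutritional role in animals, in contrast to copper and zinc, which are cofactors of many enzymes. Mercury ions bind very tightly to the thiol groups of cysteine and to selenols, and thereby block enzymes, glutathione and thioredoxin. Cadmium ions also bind thiols, resemble zinc and calcium ions, and can enter cells through transporters of those ions. Animal cells commonly hold such ions with glutathione and metallothioneins, and respond to damaged proteins with heat shock chaperones. The gene models here carry identifiers of the form v1g followed by a number, with no gene name beside them in the files. None of the 27273 identifiers matched a RefSeq table of 38762 genes, so genes of those pathways and markers of cell types could not be looked up. The differences are described by number, size and level, and few genes are named.

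Raw counts summed to between 5494659 and 8113825 per Hg library and to between 6231582 and 7603413 per Cd library. The filter on low counts kept 16276 gene models and left out 10997. Of those left out, 4652 had no count in any Hg or Cd library, and 63 was the highest count of any of them in these 6 libraries. Some libraries stood apart within their group. A set of 198 genes, chosen because they varied together between pools of the same group, summed to 1708 CPM (counts scaled to TMM-adjusted library size) in Hg 3 and 2684 CPM in Cd 1, against 308 to 532 CPM in the other 4 libraries. A second set of 20 genes summed to 922 CPM in Hg 3 and 693 CPM in Cd 2, against 16.7 to 39.4 CPM in the other 4. Genes chosen for varying between pools of a group have a large spread, so the contrast of Hg with Cd says little about them.

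Mercury-exposed anemones differed from cadmium-exposed anemones in 3930 genes, which is 24.1% of the 16276 tested (quasi-likelihood test of edgeR, adjusted after Benjamini and Hochberg, threshold 0.05). Of these, 2308 genes (14.2% of those tested) were higher in Hg and 1622 (9.97%) were lower. The median log2 fold change, Hg minus Cd, was 0.80 among the genes called higher, -0.68 among those called lower and -0.05 over all tested genes. The difference reached 2-fold in 832 of the higher genes (5.11% of those tested) and in 395 of the lower genes (2.43%). It reached 8-fold in 45 higher and 11 lower genes. Small differences were also called, with 655 of the higher genes and 612 of the lower genes under 1.5-fold.

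The balance between higher and lower genes depended on how libraries were scaled. With upper-quartile scaling in place of TMM the median log2 fold change of all genes was -0.17, and calls came to 1859 higher and 2693 lower. That moved the share of higher genes among the calls to 40.8%, against 58.7% with TMM, while no gene was called in opposite directions by these scalings. The number of lower genes fell when any 1 Hg or Cd library was left out. It ranged from 1074 without Cd 3 to 1452 without Cd 2. It was 934 without Hg 3 and Cd 1 together, the libraries with high levels of the 198-gene set. The number of higher genes was 1798 without Hg 3 and Cd 1. Leaving out libraries also makes the groups smaller, and the cause of these falls was not tested.

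**Figure D1:**
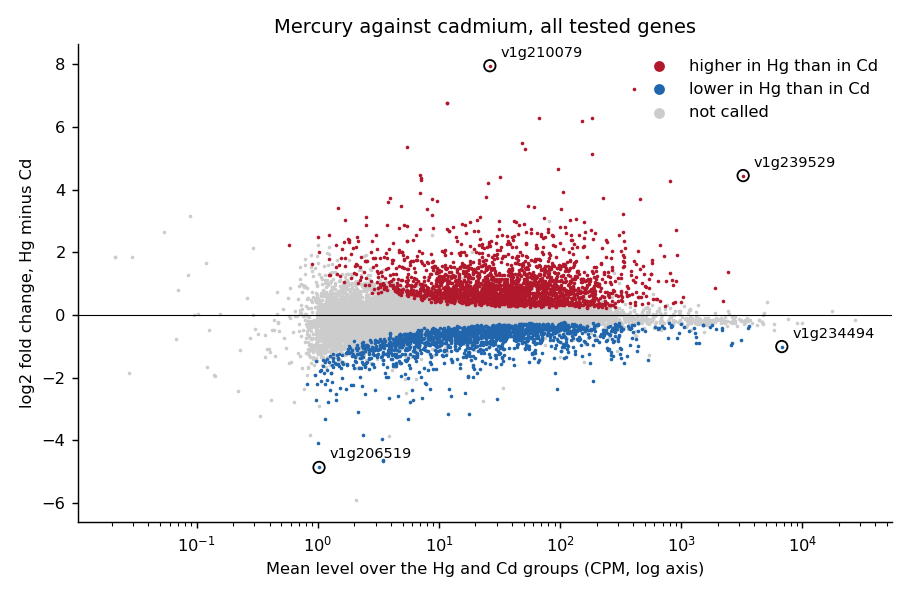
Each point is 1 of the 16276 tested genes, with its mean CPM over the Hg and Cd groups on a log axis and its log2 fold change, Hg minus Cd. Red points are the 2308 genes called higher in Hg, blue points the 1622 called lower and grey points the genes not called, and the 4 named genes are circled. Called genes above 0 reach a log2 fold change of 7.95, and those below reach -4.86.

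All 3 Hg libraries lay above all 3 Cd libraries for 3256 genes (20% of those tested) and below them for 3096 (19%), together 39% of those tested. Among the genes called higher, 2265 had no overlap between the libraries of the metals, and 43 did overlap. Among those called lower, 1547 had no overlap and 75 did. A further 2540 genes had no overlap and were not called.

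The uncalled genes fell into a larger and a smaller part. For 8643 of the 12346 uncalled genes (70%), the 95% interval of the fold change lay within 2-fold in either direction. For the other 3703 the interval reached beyond 2-fold, so a difference of that size was not excluded for them. The genes of that smaller part were weakly counted, with a median of 2.42 CPM against 14.8 CPM in the larger part.

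Calls were more common among abundant transcripts. The tested genes were put in 5 equal parts by their mean level over the 6 libraries, with median levels of 1.93, 5.44, 12.4, 27.6 and 91.3 CPM. The share called was 7.80% in the lowest part, then 14.5%, 23% and 32.5%, and 43% in the highest. Standard errors of the log2 fold change had a median of 0.43 in the lowest part and 0.12 in the highest, so that small differences could be called only among well counted genes. The direction also changed with level. In the lowest part 166 genes were lower in Hg and 88 higher, and in the next part 282 were lower and 189 higher. In the highest part 479 were lower and 920 higher. This split was made with TMM scaling and not repeated with other scalings, on which the balance of higher and lower genes depended. Genes called higher had a median of 34.7 CPM over the Hg and Cd groups, those called lower 19.8 CPM and all tested genes 12.4 CPM.

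The larger the difference, the lower was the level in the metal with less of the transcript. The size classes were cut on the Hg to Cd difference, so this follows partly from the choice. Among the 1476 genes higher in Hg by less than 2-fold, the median of the group mean was 43.3 CPM in Hg and 28 CPM in Cd. Among the 143 genes higher by 4 to 8-fold it was 51.7 CPM in Hg and 9.90 CPM in Cd, and among the 45 genes higher by at least 8-fold it was 56 CPM in Hg and 2.86 CPM in Cd. Across these size classes the median level thus differed more in Cd than in Hg. Of the 45 genes, 14 averaged under 1 CPM in Cd.

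Among the genes called lower in Hg, the strongest differences lay in weakly counted transcripts. Weakly counted genes were called only at larger differences, so this too follows partly from the choice. The smallest called log2 difference in either direction was 0.71 in the lowest part by level and 0.21 in the highest. The 1227 genes lower by less than 2-fold had medians of 21.2 CPM in Hg and 32 CPM in Cd. The 350 genes lower by 2 to 4-fold had 3.41 CPM in Hg and 8.31 CPM in Cd, and the 34 lower by 4 to 8-fold had 0.88 CPM in Hg and 4.59 CPM in Cd. The 11 genes lower by at least 8-fold had 0.29 CPM in Hg and 6.37 CPM in Cd, and 9 of these 11 averaged under 1 CPM in Hg.

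The libraries of the other groups entered the Hg and Cd means only through the scaling of libraries. The genes were called in the fit of all libraries, so those groups also entered the choice through the filter and the estimate of spread. In the 45 genes higher by at least 8-fold, the median of the group mean was 19.2 CPM in Cu, 3.21 CPM in Zn and 3.21 CPM in controls. Copper pools thus lay between the Hg and Cd medians of these genes, and Zn and control pools lay near Cd. In the 11 genes lower by at least 8-fold the medians were 1.63 CPM in Cu, 5.25 CPM in Zn and 4.83 CPM in controls, in the same order relative to Hg and Cd.

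**Figure D2:**
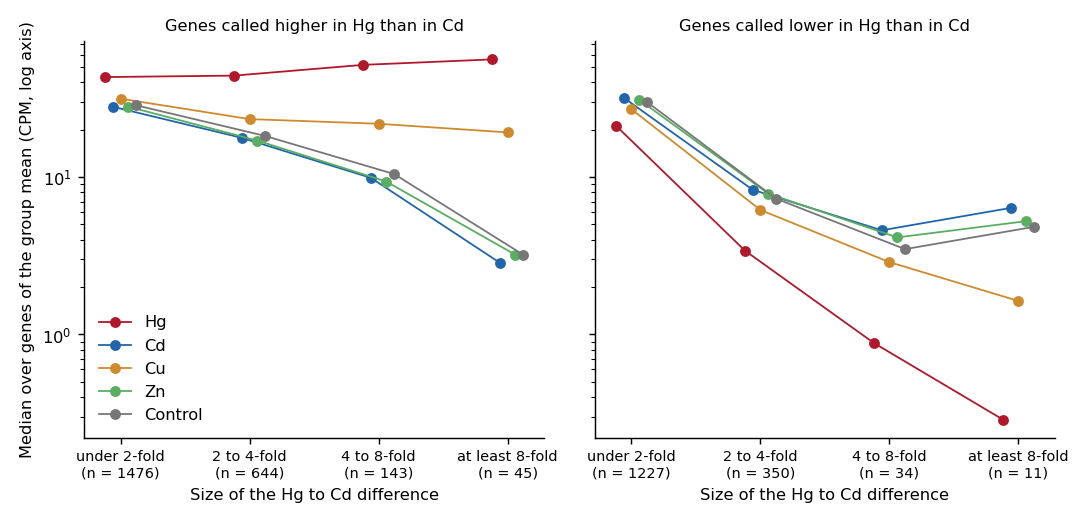
Median over genes of the group mean level (CPM, log axis) in each size class of the Hg to Cd difference, with genes called higher in Hg on the left and lower on the right. In the class higher by at least 8-fold the Hg median is 56 CPM, Cd is at 2.86, Cu at 19.2, and Zn and control at 3.21. Classes were formed from the Hg and Cd values, so the gap between those groups follows from the choice.

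The called genes took different shares of the RNA under the metals. The 2308 genes called higher took 23.1%, 22.4% and 21.6% of all counts in Hg 1 to 3, against 10.6%, 12.1% and 11.3% in Cd 1 to 3. The means were 22.4% ± 0.74 in Hg and 11.3% ± 0.72 in Cd (SD, n = 3 each). The 1622 genes called lower took 10.1%, 10.2% and 10.1% in Hg 1 to 3, against 15.9%, 14.9% and 16% in Cd 1 to 3. Because the genes were chosen on these counts, the shares carry no test. In the other libraries the genes called higher took 14.2% ± 0.75 in Cu (SD, n = 3), 10.9% ± 0.11 in Zn (SD, n = 3) and 11.4% ± 0.73 in controls (SD, n = 4). The genes called lower took 13.6% ± 0.63 in Cu, 15.5% ± 0.65 in Zn and 14.7% ± 0.60 in controls.

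**Figure D3:**
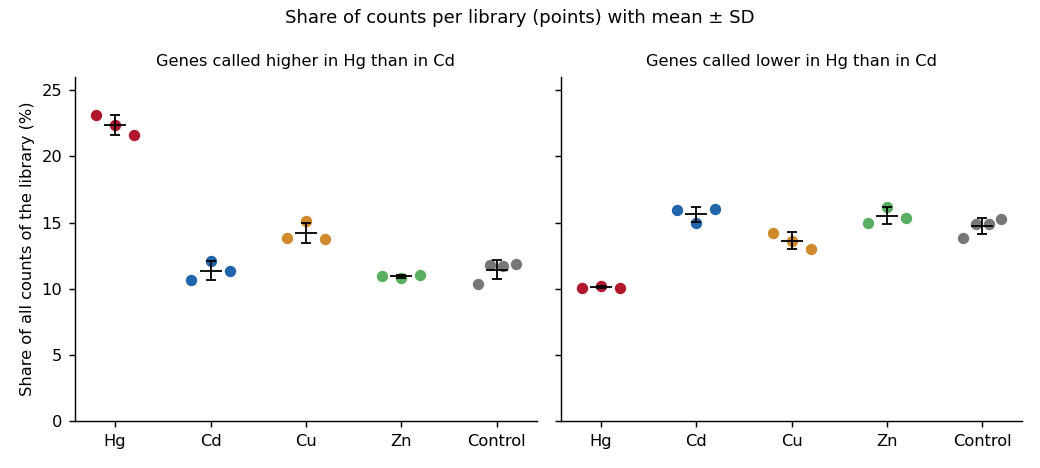
Share of all counts of each library (%) in the genes called higher (left) and lower (right) in Hg than in Cd, with 1 point per library and the mean ± SD of each group. For the genes called higher, the Hg libraries lie at 21.6 to 23.1% and the Cd libraries at 10.6 to 12.1%.

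Among the called genes, the gain in Hg was spread over more genes than the loss. Summed over genes, the difference of mean CPM was 110649 CPM for the genes called higher and 54004 CPM, in the other direction, for the genes called lower. It took 162 of the 2308 higher genes to reach 50% of that gain, and 55 of the 1622 lower genes to reach 50% of the loss. The 10 called genes with the largest differences held 14.7% of that gain and 26.4% of that loss. Genes called higher held 82.8% of the CPM difference over all genes with a higher mean in Hg. Genes called lower held 42.4% of the difference over all genes with a lower mean. Most of the whole loss thus lay in uncalled genes, and the spread of the whole gain and loss over genes was not compared.

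Among the genes that were higher in Hg with no overlap between libraries, v1g210079 had the largest fold change. It measured 46.4, 51.1 and 59.7 CPM in Hg 1 to 3, against 0.17, 0.43 and 0 CPM in Cd 1 to 3. The Hg libraries held 264, 354 and 467 counts of it and the Cd libraries 1, 3 and 0. It was thus counted well in every Hg pool and near 0 in every Cd pool. The log2 fold change was 7.95 ± 0.42 (SE, edgeR adjusted p = 4.66e-10), and the ratio of summed counts, scaled to library size, was 275 (95% counting interval 107 to 1011). As only 4 counts stand in Cd, the fitted value moved to 9.16 without Cd 2 and 7.32 without Cd 3, and the gene was called in each case. Zn pools had 0.16 to 0.64 CPM and control pools 0 to 0.35 CPM of it, and Cu pools had 4.6 to 9.03 CPM.

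The largest gain in CPM was that of v1g239529. Its level was 5186, 6310 and 7090 CPM in Hg 1 to 3, against 286, 268 and 298 CPM in Cd 1 to 3. All Hg libraries lay far above all Cd libraries, and the Cd libraries differed little from each other. The log2 fold change was 4.45 ± 0.14 (SE, edgeR adjusted p = 9.92e-13). This transcript alone made up 5.34% of the gain over the genes called higher. It averaged 3339 ± 456 CPM in Cu and 273 ± 9.2 CPM in Zn (SD, n = 3 each), and 280 ± 13 CPM in controls (SD, n = 4).

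Among the genes that were lower in Hg with no overlap, v1g206519 had the largest fold change, at a low level. The Hg libraries held 1, 0 and 0 counts, against 19, 7 and 14 counts in Cd 1 to 3, or 3.15, 1.01 and 1.80 CPM. Nearly all its counts in these 6 libraries therefore came from Cd pools. The summed counts gave a Cd to Hg ratio of 39.5 with a 95% counting interval of 6.69 to 1598, and the fitted log2 fold change, Hg minus Cd, was -4.86 ± 1.19 (SE, edgeR adjusted p = 0.0062). Left-out libraries moved the fitted value to between -6.72 (without Hg 1, which holds the only Hg count) and -4.32 (without Hg 3), all of them called. Without Hg 3 and Cd 1 it was -3.86 and no longer called (edgeR adjusted p = 0.0884). The other groups held 5 counts in Cu, 59 in Zn and 61 in controls. In the fit of the 6 Hg and Cd libraries alone this gene was not tested.

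The largest loss in CPM was that of v1g234494, an abundant transcript. It measured 4478, 4010 and 4983 CPM in Hg 1 to 3, against 11228, 8534 and 7293 CPM in Cd 1 to 3. The groups did not overlap, and the Cd pools were more spread than the Hg pools. The log2 fold change was -1.01 ± 0.15 (SE, edgeR adjusted p = 6.91e-05), and the gene made up 8.38% of the loss over the genes called lower. Cu pools averaged 6800 ± 583 CPM and Zn pools 11109 ± 642 CPM (SD, n = 3 each), and controls 8773 ± 1220 CPM (SD, n = 4).

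**Figure D4:**
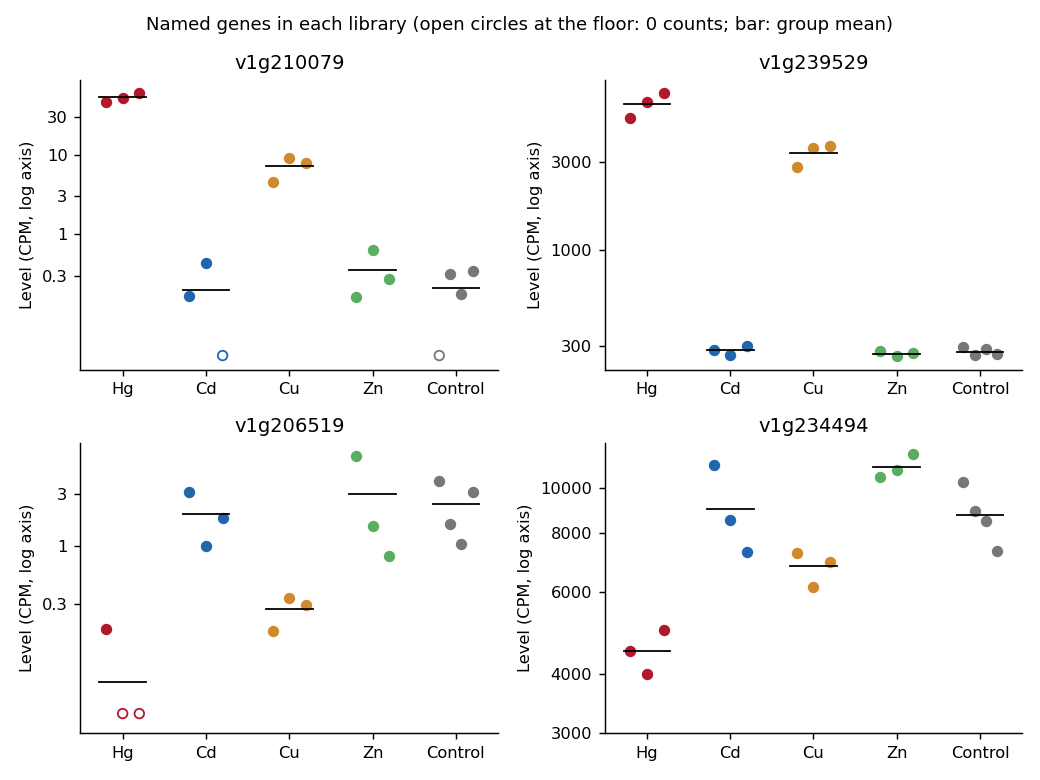
Level in CPM (log axis) of the 4 named genes in each of the 16 libraries by group, with 1 point per library and a bar at the group mean. Open circles mark libraries with 0 counts, drawn at the floor of the axis. For v1g239529 the Hg libraries lie at 5186 to 7090 CPM and the Cd libraries at 268 to 298 CPM.

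No gene had at least 10 counts in every library of one metal and 0 in all libraries of the other, in either direction. With a minimum of 5 counts, 1 gene was counted in Hg and at 0 in Cd, and 0 genes the other way. That gene, named after its values were seen, was v1g127544, with 96 counts in Hg pools, between 5 and 63 per library. Taking 3 counts over the Cd group as the most that a total of 0 allows, it was at least 32.4-fold higher in Hg. Hg 1 held most of these counts, and without it 33 counts remained and the bound was 15.4-fold, a value added after the data were seen. It had 8 counts in Cu, 2 in Zn and 1 in controls, and was left out by the filter on low counts.

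Levels in control pools were next set beside those of both metals. The genes were chosen here from the 6 Hg and Cd libraries alone, which called 2115 genes higher (13.8% of 15335 tested) and 1228 lower (8.01%) by edgeR. Of these, 2046 and 1141 were also called in the fit of all libraries. Among the 2115 higher genes, the control median lay within the range of the Cd libraries alone for 1178 (55.7%), between the Hg and Cd ranges for 569 (26.9%), and within the Hg range alone for 28 (1.32%). For 336 genes (15.9%) it lay below the Cd range. Among the 1228 lower genes it lay within the Cd range alone for 606 (49.3%), between the ranges for 426 (34.7%), and within the Hg range alone for 28 (2.28%). Over all genes tested with a fold change above 0, the control median lay within the Cd range alone for 38.5% and within the Hg range alone for 11.8%. For those below 0 the shares were 37.2% and 13.9%. The control median lay in both ranges for 1609 genes above 0 and 1867 below, against 0 of the called genes. These shares thus differ from those of the called genes partly through the choice.

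Copper pools stood elsewhere. Among the 2115 higher genes the Cu median lay between the Hg and Cd ranges for 1330 (62.9%) and within the Cd range alone for 575 (27.2%). Among the 1228 lower genes it lay between them for 661 (53.8%) and within the Cd range alone for 413 (33.6%). Zn medians lay within the Cd range alone for 1287 of the higher genes (60.9%) and 707 of the lower genes (57.6%). Over all genes tested, the Cu median lay between the ranges for 21.2% of genes with a fold change above 0 and 12.6% of those below, and within the Cd range alone for 30% and 31%, close to the shares in the called genes. For Zn the shares over all genes within the Cd range alone were 41.4% and 40.4%. A median can lie between the ranges only where these leave a gap. Over all genes the Cu median lay in both ranges for 1512 genes above 0 and 1910 below, against 0 of the called genes. The shares in called genes and in all genes thus differ partly through the choice of genes.

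Each metal was also set against control in the fit of all libraries. These comparisons share their controls with each other, and each shares its metal libraries with the direct contrast, so the values stand side by side without a test. Against control, 2439 of all tested genes (15%) were higher in Hg and 1897 (11.7%) were lower, and 3 (0.0184%) were higher in Cd and 0 (0%) were lower, by edgeR. At an unadjusted p under 0.05, 593 genes were higher and 551 lower in Cd than in control, and DESeq2 called 19 higher and 1 lower. Of the 2308 genes higher in Hg than in Cd, 2026 were called higher in Hg than in control and 2 higher in Cd than in control by edgeR, with median log2 fold changes against control of 0.76 in Hg and -0.04 in Cd. Of these 2308 genes, 58 were higher and 132 lower in Cd than in control at an unadjusted p under 0.05, while DESeq2 had 6 higher and 0 lower. Of the 1622 genes lower in Hg than in Cd, 1156 were called lower in Hg than in control and 0 either way in Cd by edgeR, with medians of -0.59 in Hg and 0.09 in Cd. Of these 1622 genes, 182 were higher and 23 lower in Cd than in control at an unadjusted p under 0.05, while the calls of DESeq2 were 6 higher and 0 lower.

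The 2 genes that were higher in Hg than in Cd and also called higher in Cd than in control by edgeR were v1g167250 and v1g28119, named after their values were seen. v1g167250 measured 783, 665 and 662 CPM in Hg 1 to 3, against 164, 161 and 183 CPM in Cd 1 to 3, and 102 to 123 CPM in controls. The Hg minus Cd log2 fold change was 2.05 ± 0.10 (SE, edgeR adjusted p = 1.28e-10). v1g28119 measured 222, 159 and 177 CPM in Hg 1 to 3, against 57.6, 59.3 and 48.2 CPM in Cd 1 to 3, and 27.3 to 32.5 CPM in controls. The Hg minus Cd log2 fold change was 1.76 ± 0.12 (SE, edgeR adjusted p = 6.28e-09). In both genes the Cd libraries lay above all controls and below all Hg libraries.

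A smaller number of genes were called between the metals but for neither metal against control. They were 282 genes higher in Hg than in Cd and 466 lower. Among the 282, the median log2 fold change against control was 0.30 in Hg and -0.26 in Cd. Among the 466 it was -0.33 in Hg and 0.26 in Cd. Genes with a called difference between the metals but none against control tend to have controls in between. The opposite signs thus follow largely from the choice, and opposite effects of the metals were not tested.

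Libraries beyond all others were common in Hg and rare in Cd. The 3 Hg libraries lay above all 13 other libraries for 1933 genes (11.9% of those tested) and below them for 915 (5.62%). The 3 Cd libraries lay above all 13 others for 43 genes (0.264%) and below them for 20 (0.123%). The same counts were 55 (0.338%) and 60 (0.369%) for Cu, and 63 (0.387%) and 58 (0.356%) for Zn. For the controls they were 20 (0.123%) and 34 (0.209%), where all 4 libraries had to lie beyond the others, a stricter condition than for 3. Among the 2308 genes called higher in Hg than in Cd, Hg was above all others in 1738 and Cd below all others in 16. Among the 1622 called lower, Hg was below all others in 771 and Cd above all others in 30.

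The difference between copper and zinc, the metals with a nutritional role, was read in the same genes because it uses none of the same libraries. The genes were chosen from the Hg and Cd libraries alone, and Cu minus Zn was fitted on the 6 Cu and Zn libraries alone, where 531 genes were called higher in Cu (3.46% of 15351 tested) and 142 lower (0.925%) by edgeR. In the 2086 higher genes that were tested in both, the level was higher in Cu than in Zn for 1855 (88.9%), with a median log2 fold change, Cu minus Zn, of 0.27. In the 1221 lower genes it was higher in Cu for 229 (18.8%), with a median of -0.19. Over all 15003 genes tested in both, it was higher in Cu for 48.5%, with a median of -0.01.

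The genes with larger differences between Hg and Cd also had larger ones between Cu and Zn. Of the 169 genes at least 4-fold higher in Hg than in Cd, 115 were called higher in Cu than in Zn, with a median log2 fold change, Cu minus Zn, of 1.15, where the median for Hg minus Cd was 2.54. Of the 1291 genes higher by less than 2-fold, 103 were called higher in Cu than in Zn, with a median of 0.18. Of the 32 genes at least 4-fold lower in Hg, 13 were called lower in Cu than in Zn, with a median of -1.18. Over all genes tested in both, 3.53% were called higher in Cu than in Zn and 0.946% lower. Across the 15003 genes, the fold changes of the pairs of metals had a Pearson coefficient of 0.57 and a Spearman coefficient of 0.44, where genes are not independent replicates and share depth within a library.

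Of the 529 genes called higher in Cu than in Zn, 428 (80.9%) were also called higher in Hg than in Cd, and these were 20.5% of the 2086. Of the 142 called lower in Cu, 85 (59.9%) were also called lower in Hg, and these were 6.96% of the 1221. Over all 15003 genes tested in both, 3.53% were called higher in Cu than in Zn and 0.946% lower. Of all genes tested with the Hg and Cd libraries alone, 13.8% were higher in Hg and 8.01% lower. The shared numbers fell when any 1 Cu or Zn library was left out. Leaving out a library also makes its group smaller, and the cause of the fall was not tested. The shared higher genes ranged from 266 without Zn 2 to 348 without Cu 1, with 278 without Cu 2. The shared lower genes ranged from 33 without Cu 3 to 72 without Zn 1, with 44 without Cu 2 and 44 without Zn 2.

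**Figure D5:**
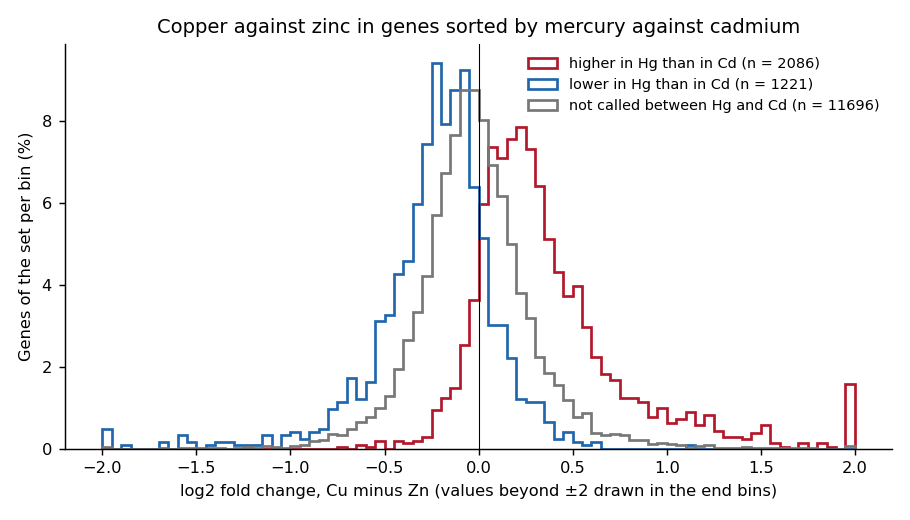
Distribution of the log2 fold change, Cu minus Zn, in the genes called higher (red, 2086 genes), called lower (blue, 1221) and not called (grey, 11696) between Hg and Cd, as a percentage of each set per bin. The medians are 0.27 for the red, -0.19 for the blue and -0.03 for the grey set.

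By sign of the fold change alone, 229 of the 1221 genes lower in Hg were higher in Cu than in Zn. Only 3 genes (0.246% of the 1221) were called lower in Hg than in Cd and higher in Cu than in Zn. Over all 15003 genes tested in both, 3.53% were called higher in Cu. Of the 2086 genes higher in Hg, 0 were called lower in Cu. The 3 genes were v1g1180, v1g168100 and v1g182469, named after their values were seen. v1g168100 measured 72.7, 70.4 and 73.8 CPM in Hg 1 to 3, against 108, 109 and 90.4 CPM in Cd 1 to 3. It had 104 to 128 CPM in Cu and 80.3 to 85.9 CPM in Zn, so that neither pair overlapped. Its log2 fold change was -0.50 ± 0.10 for Hg minus Cd (SE, edgeR adjusted p = 0.00117) and 0.48 ± 0.10 for Cu minus Zn (SE, edgeR adjusted p = 0.0196). v1g1180 had 21.1, 19.6 and 26.2 CPM in Hg 1 to 3, against 39.2, 33.6 and 35.3 CPM in Cd 1 to 3, and 43.2 to 47.9 CPM in Cu against 30.8 to 36.1 CPM in Zn. For v1g182469 the Hg minus Cd value was -0.46 and called in the fit of the 6 libraries (edgeR adjusted p = 0.0497), but not in the fit of all libraries (edgeR adjusted p = 0.0961).

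Distances between libraries placed the difference between the metals beside the spread of pools. The root mean square difference of log2 CPM over all tested genes was 0.72 to 0.87 for the 9 pairs of a Hg and a Cd library. It was 0.51 to 0.58 for the 3 pairs of Hg libraries and 0.50 to 0.60 for the 3 pairs of Cd libraries. Every pair between the metals was thus farther apart than every pair within a metal. The closest pair between the metals, Hg 3 and Cd 2, stood at 0.716, with Hg 2 and Cd 2 at 0.718. The farthest pair, Hg 1 and Cd 1, stood at 0.87. Between 1826 and 2787 genes were at least 2-fold apart in a pair of a Hg and a Cd library, against 888 to 1075 in a pair of Hg libraries and 812 to 1045 in a pair of Cd libraries. The median SD of log2 CPM over pools was 0.20 in Hg and 0.19 in Cd.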

How the data were processed

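RNA was isolated with Tri-reagent, and the TruSeq mRNA kit served for the libraries, per the labels' protocols. STAR, Partek and DESeq are named in the submitters' processing notes, with no version or role. The sources used here give no genome build, strand or batch. The authors deposited 4 tables of raw counts per gene model, not normalized, each with the 4 control libraries and 3 libraries of its metal. The control columns held identical counts in every table and entered once.

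The analysis used edgeR 4.0.16 in R 4.3.3: default filterByExpr, TMM factors, and a robust quasi-likelihood fit of all 16 libraries with a term per group and no replicate block. The contrast was Hg minus Cd, adjusted by Benjamini-Hochberg over all tested genes with a threshold of 0.05. The other groups enter it through the filter on low counts, the TMM factors and the estimate of spread. With the 6 Hg and Cd libraries alone 15335 genes were tested. Standard errors are the log2 fold change over the square root of F. Levels are TMM-scaled CPM. The log2 CPM for distances used a prior count of 2. For the placement of control, Cu and Zn medians and for Cu minus Zn, genes were chosen by a fit of the 6 Hg and Cd libraries. Size classes, shares of counts, comparisons with control and libraries beyond all others used genes called in the fit of all 16 libraries. Counting intervals are exact and cover counting error only. Depth per library was 5494659 to 8113825 counts, so that 1 CPM is a handful of reads.

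Named genes were, in each direction, that with the largest fold change and that with the largest difference of mean CPM, among called genes with no overlap between libraries and at least 1 CPM in the higher group. Counts of 5 or fewer among genes that differed between Hg and Cd were named too. Of the 3 genes called higher in Cd than in control by edgeR, only the 2 also higher in Hg than in Cd were named. The 1 gene called lower in Cd than in control by DESeq2 was not named. The genes, lists and rules were chosen with earlier results of these data known. The lists of metal-binding, stress and cell type genes could not be used, as 0 identifiers matched. Per the labels each pool held its own animals, so the spread behind a p-value is that between pools. Alternatives were DESeq2 1.42.0, other scalings and filters, the 6 libraries alone, a replicate block, left-out libraries and a minimum change of 1.5-fold.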

Additional observations from a re-analysis of the deposited data

Results flagged for a closer look

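Of 6 values checked over the 4 control libraries, 1 had a library far from the other 3. In control 1 the genes called higher in Hg than in Cd took 10.3% of counts, where the other controls had 11.7 to 11.9%. A check of this kind marks about 1 in 20 groups by chance. Control libraries enter the contrast of Hg with Cd only through the filter, the scaling and the estimate of spread.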

How the results depend on the processing

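No gene called under any alternative had the opposite direction to its call in the main analysis. Of 207 values recomputed, 170 kept their direction and call or stayed within a limit. The limit was 1.5 times for counts and a binomial interval over genes for the percentages of Cu against Zn. For other values it was the SD over libraries or pairs of libraries. The binomial interval takes genes as independent, which they are not. The genes lower in Hg numbered 2693 with upper-quartile factors and 934 without Hg 3 and Cd 1. Requiring a change above 1.5-fold left 821 higher and 216 lower genes, 197 of the lower ones at least 2-fold. Leaving out 1 library at a time gave 1905 to 2189 higher and 1074 to 1452 lower genes, with 790 to 908 and 321 to 456 at least 2-fold. With a replicate block 2217 genes were higher and 1553 lower, and no call of a named gene changed. Deviations of Hg and Cd pools of the same number from their group means had correlations of -0.17, -0.01 and -0.27 for numbers 1 to 3. Pairs of unlike number had correlations of -0.21 to 0.34. With 3 pools per group these values cannot tell whether pools of the same number were handled together, which was not tested. DESeq2 called 2245 higher and 1374 lower. Without Hg 3 and Cd 2, an alternative chosen after the data were seen, 2061 were higher and 1257 lower. Leaving out 1 Hg, Cd, Cu or Zn library, 84.5 to 91.9% of the higher and 17 to 25.2% of the lower genes were higher in Cu than in Zn, with 266 to 436 called higher in Cu and 33 to 82 called lower. Genes called by DESeq2 took 23.8% of counts in Hg and 12.5% in Cd (higher), and 10.6% and 16.3% (lower). Genes called from the 6 libraries took 21.1% in Hg and 10.5% in Cd (higher), and 8.11% and 12.9% (lower). Median distances were 0.82 between metals, 0.66 within Hg and 0.67 within Cd with a prior count of 0.5, and 0.48 within Hg and 0.49 within Cd with the stricter filter (at least 1 CPM in every Hg or every Cd library). The fit of the 6 libraries did not hold v1g206519. A minimum of 5 counts gave 1 gene counted in Hg and at 0 in Cd. The causes of these shifts were not tested. Depth limits the calls of genes under a few CPM.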
